A study of Mus musculus with 18 samples.

Results

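The mitochondrial ribosomal proteins are the protein subunits of the ribosome that works inside mitochondria. They were taken as all genes on the array whose symbol starts with Mrpl (large subunit) or Mrps (small subunit) followed by a number, without pseudogenes. This gave 76 genes of 19505 named genes measured, 48 of them Mrpl and 28 Mrps, and each had 1 probe set. Mrpl53 and Mrps6 were not analysed here.

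RNA was measured on 1 array per mouse in 18 preparations that the labels call bone marrow mesenchymal cells. Controls were 5 BALB/c mice of 12 weeks and 4 of 24 weeks. The other arm was 5 NeuT mice of 12 weeks and 4 of 24 weeks, labelled tumour-bearing at both ages, with disease states of an early stage at 12 weeks and a late stage at 24 weeks. NeuT mice carry an activated rat neu (Erbb2) oncogene expressed in the mammary gland and develop mammary carcinomas. No tumour-free NeuT group and no tumour-bearing BALB/c group was compared, so the transgene and the tumour cannot be told apart. All groups share the same preparation: marrow of femurs and tibias was depleted with beads of cells that bear CD45, Ter119, CD11b, CD11c, CD3, Gr1 or B220, and the remaining cells were checked by flow cytometry for absence of CD45 and presence of CD29 and CD44. The replicates of a group carry different mouse numbers and were taken as different animals, although for 1 NeuT mouse of 12 weeks the number in the title differs from that in the description.

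Mitochondria keep a small genome that encodes a few core subunits of the respiratory chain and of ATP synthase, together with the ribosomal and transfer RNAs needed to read them. Every protein of the mitochondrial ribosome is instead encoded in the nucleus, made in the cytosol and imported. Part of these proteins descend from bacterial ribosomal proteins, and the rest were gained in the mitochondrial lineage. In bone marrow the ribosome supplies respiratory subunits to all cell types, so its genes mark no single lineage.

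Signals are log2 values, in which a difference of 1 is a doubling. Array medians over all genes lay between 8.43 and 8.56. The stromal label was checked against marker genes. Cxcl12 lay at 9.04 to 9.45 over the 18 arrays, Col1a2 at 8.25 to 8.86 and Pdgfrb at 7.96 to 8.92, all within the range of the negative control probes, whose 95th percentile was 10.5. The neutrophil precursor genes Elane, at 13.62 to 14.24, and Mpo, at 13.45 to 14.02, exceeded that percentile on every array. Ngp, another neutrophil gene, did so too, at 12.61 to 13.74. The neutrophil genes Mmp9, at 7.02 to 9.10, and Cxcr2, at 8.87 to 9.86, did so on no array. Of 13 measured stromal genes, 11 exceeded the percentile on no array, Eng did so on 2 arrays, and Igfbp4, at 10.59 to 11.49, did so on all 18. Most genes lay below it as well, since 17.9% of all genes had a mean above the percentile. Cxcl12, Col1a2 and Pdgfrb exceeded the control median of 7.35 on every array. These levels therefore do not show that stromal RNA was absent. In such bulk RNA, fewer cells of a type and less RNA per cell cannot be told apart. Among the mitochondrial ribosomal genes, 38 of 76 had a mean above the 95th percentile of the controls, against 17.9% of all genes, and 29 exceeded it on every array. The means ran from 7.49 to 13.14, and 75 genes exceeded the control median of 7.35 on every array. The exception was Mrpl43, whose lowest array read 7.28.

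The promoters of 4 members are shown first, because these genes carry the single calls and the next smallest p-values described further on. Mrpl41 is the member called at 12 weeks, Mrps27 is the member called with age, and Mrps33 and Mrpl18 came next after Mrpl41. The windows hold 250 bases before the annotated start and 50 from it on, 5′ to 3′ on the gene's strand, from RefSeq on GRCm38.p6. Mrpl41 lies at chr2:24975049-24975348 on the minus strand, Mrps27 at chr13:99344536-99344835 on the plus strand, Mrps33 at chr6:39810887-39811186 on the minus strand and Mrpl18 at chr17:12916042-12916341 on the minus strand. Capitals mark matches, on either strand, to the ETS motif in Mrps27, Mrps33 and Mrpl18, and to the YY1 motif as the second match in Mrps27.
Mrpl41: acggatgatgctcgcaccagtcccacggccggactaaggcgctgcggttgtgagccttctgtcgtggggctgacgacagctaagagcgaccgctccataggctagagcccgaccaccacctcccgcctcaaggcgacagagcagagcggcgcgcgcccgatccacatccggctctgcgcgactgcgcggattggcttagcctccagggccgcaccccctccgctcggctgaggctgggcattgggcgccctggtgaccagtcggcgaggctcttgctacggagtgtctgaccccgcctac
Mrps27: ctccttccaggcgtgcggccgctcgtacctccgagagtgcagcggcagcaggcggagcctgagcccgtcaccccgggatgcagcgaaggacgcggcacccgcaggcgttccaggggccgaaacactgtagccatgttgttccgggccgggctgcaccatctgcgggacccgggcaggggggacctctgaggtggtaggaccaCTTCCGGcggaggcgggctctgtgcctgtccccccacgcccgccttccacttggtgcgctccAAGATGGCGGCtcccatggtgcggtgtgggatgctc
Mrps33: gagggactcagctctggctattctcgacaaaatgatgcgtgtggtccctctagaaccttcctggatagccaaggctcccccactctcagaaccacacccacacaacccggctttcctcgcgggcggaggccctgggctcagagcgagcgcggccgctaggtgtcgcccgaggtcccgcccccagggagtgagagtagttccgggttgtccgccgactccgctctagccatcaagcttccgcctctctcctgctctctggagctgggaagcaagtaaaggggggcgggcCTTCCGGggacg
Mrpl18: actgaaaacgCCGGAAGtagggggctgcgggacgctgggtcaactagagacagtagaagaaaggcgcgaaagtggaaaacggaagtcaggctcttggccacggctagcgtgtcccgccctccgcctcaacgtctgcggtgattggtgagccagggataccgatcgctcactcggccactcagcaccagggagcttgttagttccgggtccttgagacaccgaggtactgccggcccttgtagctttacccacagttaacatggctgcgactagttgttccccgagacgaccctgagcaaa

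Windows were found for 67 of the 76 members, 73 windows in all since 3 genes had more than 1. The ETS-family motif, searched as CCGGAAG on both strands, was in 34.2% of the member windows, against 11.8% of the 19143 windows of array genes and 8.86% of all 32851 windows. NRF1, a nuclear factor known for driving genes of the respiratory apparatus, has a motif of 10 letters, which was in 17.8% of member windows against 6.77% of array gene windows. The YY1 motif of 11 letters, capitalised in the Mrps27 window, was in 6.85% against 0.93%. None of these motifs is contained in another. Shares were closer for the E-box CACGTG that Myc binds (9.59% against 8.11%) and for CCAAT (39.7% against 37.9%), and TATAAA was in 6.85% of member windows against 12.3%. The Mrpl41 window held no ETS, NRF1, YY1, E-box or TATA match and 2 CCAAT matches, which are not capitalised. None of these letter matches shows binding, and the median NeuT minus BALB/c difference at 12 weeks was 0.17 for the 25 genes with the ETS motif and 0.13 for the 42 without it. For NRF1 these medians were 0.12 with it, in 13 genes, and 0.15 without it. Their median GC content was 58.3%, against 57.0% for array genes.

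Many of these genes start next to another gene that runs the opposite way. A start on the other strand lay within 1000 bases upstream of 23 of 67 members (34.3%), against 1352 of 15691 array genes (8.62%). Mrpl46 and Mrps11 share 1 such stretch, with 42 bases between their starts. Mrps12 faces the serine tRNA synthetase gene Sars2 at 147 bases, Mrpl43 faces the mitochondrial helicase gene Twnk at 116 bases, and Mrps27 faces Ptcd2 at 108 bases. At 12 weeks 14 of the 23 partners had a higher mean in NeuT, against 42.6% of all genes. Their median difference was 0.041, against -0.025 over all genes. Mrpl46 and Mrps11 count here as each other's partner, and of the 21 partners that are no members 13 were higher. Some pairs had like values, such as Mrpl18 (0.33) with the chaperonin gene Tcp1 (0.28) and Mrpl47 (0.30) with the respiratory gene Ndufb5 (0.25), none passing the threshold. In others they differed in sign, with 0.24 for Mrps12 and -0.12 for Sars2, neither passing. Ptcd2 rose by 0.41 (adjusted p = 0.0170) where Mrps27 differed by 0.14 (adjusted p = 0.243). Mitd1 rose by 0.60 (adjusted p = 0.0185) where Mrpl30 differed by 0.09 (adjusted p = 0.551).

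At 12 weeks the question is what differs between cells of NeuT mice and those of BALB/c mice at the early stage. Most mitochondrial ribosomal genes had a slightly higher mean in NeuT: 68 of 76 (89.5%), against 42.6% of all genes. The median difference over the members was 0.15, a ratio of 1.11, with single values from -0.08 to 0.37, while the median over all genes was -0.025. Mrpl41 alone passed the threshold, an adjusted p under 0.05 over all genes in limma. That is 1 of 76 (1.32%), against 3.84% of all genes called in either direction and 3.15% called higher. No member was called lower, against 0.687% of all genes, so at this threshold the share of called members was not above the background. The 95% interval lay above 0 for 33 members, at an unadjusted p under 0.05, against 21% of all genes in either direction. Without NeuT replicate 5 of 12 weeks 14 members were called, while without any other single array of that age the count was 0 or 1. Of all genes, 6.99% were called without that replicate and 1.18% to 3.33% without 1 of the others. All 76 intervals lay within a 1.5-fold change either way. Groups did not overlap for Mrpl19, Mrpl24, Mrps26, Mrps27 and Mrps33, which is 6.58% of members against 4.63% of all genes higher in NeuT. None was lower without overlap, against 2.82% of all genes.

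**Figure D1:**
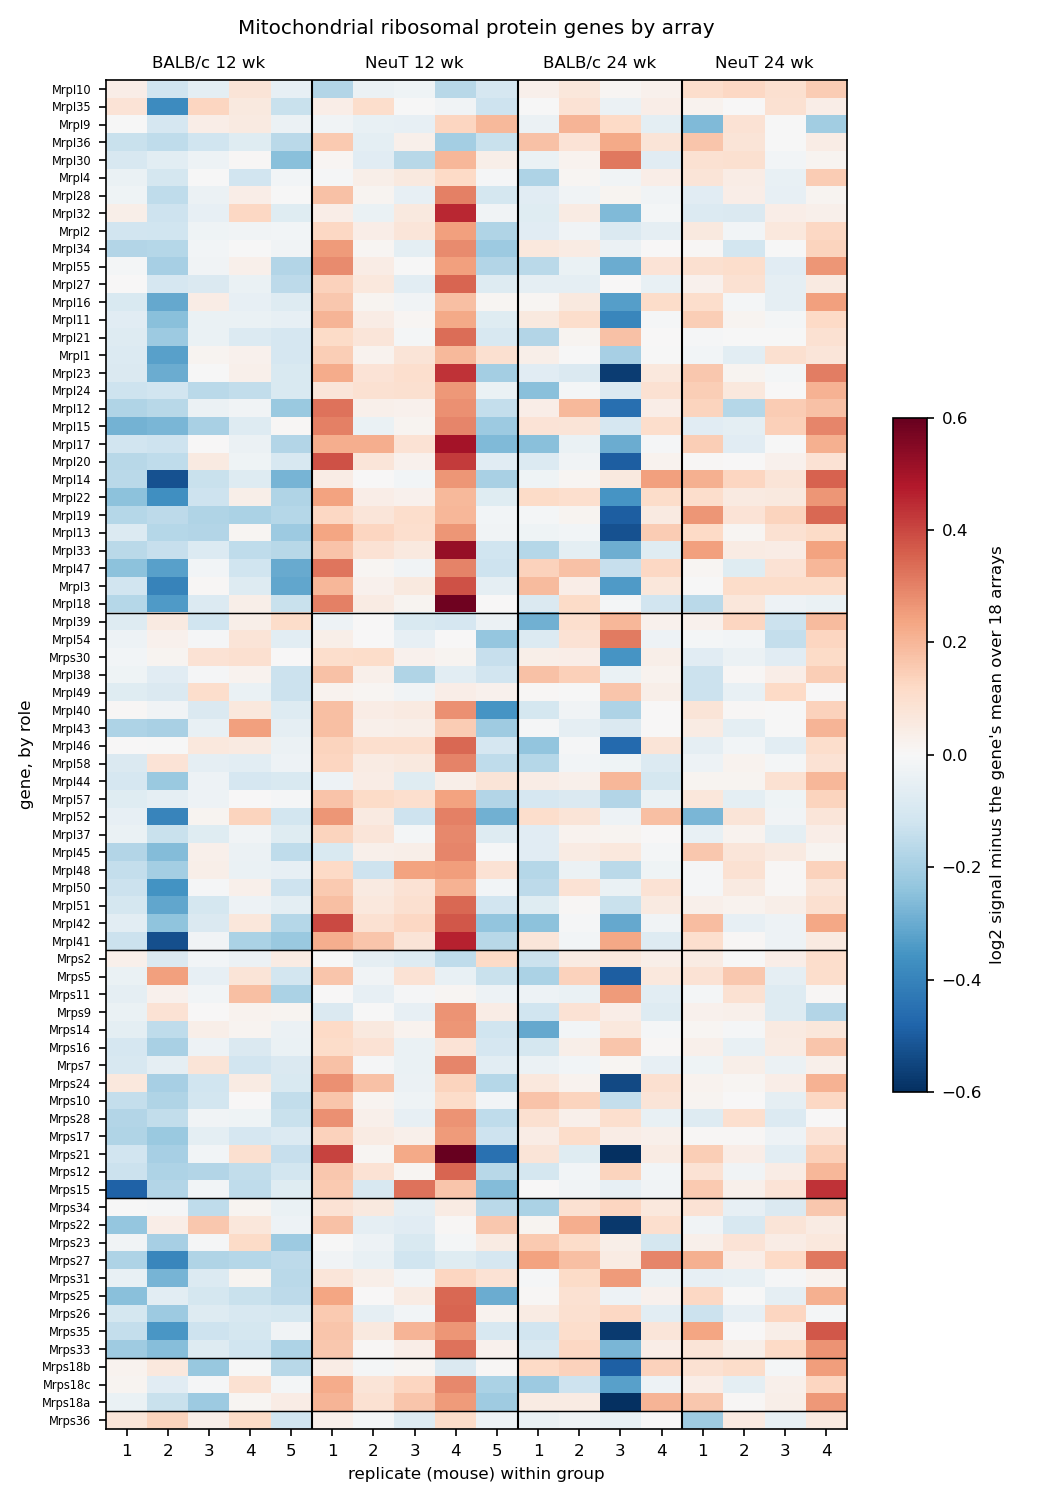
Log2 signal of each of the 76 genes (vertical, ordered by role) on each of the 18 arrays (horizontal, by group), minus that gene's own mean over all arrays, with the colour scale in log2 units ending at 0.6 either way. The arrays of BALB/c mice of 12 weeks are mostly below the genes' means, and among NeuT mice of 12 weeks replicate 4 has 66 genes above and replicate 5 has 16.

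Mice of 1 group differed among themselves in the level of these genes. For each array, the median over members of the signal minus the gene's own mean was taken. In BALB/c mice of 12 weeks it was -0.090, -0.16, -0.031, -0.0027 and -0.097, and in NeuT mice of 12 weeks 0.16, 0.033, 0.016, 0.26 and -0.10. In words, 4 NeuT mice were above every BALB/c mouse of that age, while NeuT replicate 5 lay among the BALB/c mice. Of the 76 genes, 66 were above their own mean in NeuT replicates 1 and 4 and 16 in replicate 5, and 6 to 37 in the BALB/c mice. Over all genes, NeuT replicate 4 was also the array least like the rest, with a median correlation of 0.9873 with the others. Without it the median NeuT minus BALB/c difference of the members at 12 weeks was 0.12.

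Markers of other marrow cells were read on the same arrays. The mean of 15 neutrophil genes was 10.72, 10.62, 11.22, 10.90 and 10.70 in BALB/c mice of 12 weeks and 11.59, 11.85, 11.77, 12.08 and 10.79 in NeuT mice. NeuT replicate 4 was highest and replicate 5 lowest of its group here too. The order was not the same throughout: in BALB/c replicate 3 had the highest neutrophil mean and replicate 4 the highest member median. At 12 weeks 6 of the 15 neutrophil genes rose in NeuT and none fell, with a median difference of 0.59. The mean of 11 measured B-cell genes ran from 10.71 to 10.93 in BALB/c and was 9.42, 10.21, 10.53, 10.65 and 10.76 in NeuT, with a median difference of -0.53 and 0 of 11 called. Of 10 measured monocyte and macrophage genes 4 rose and 1 fell. None of 13 stromal genes, 14 cycling-cell genes or 7 erythroid genes passed the threshold at 12 weeks, with medians of -0.019, -0.020 and -0.23, and of 11 T and NK-cell genes 1 rose. With the neutrophil and B-cell means of each array as covariates, the median over the 76 members became 0.035, with 51 genes positive and none called. In that fit only 0.0205% of all genes were called, and the median over all genes was -0.026. Whether the cell makeup or these markers account for the difference was not tested.

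**Figure D2:**
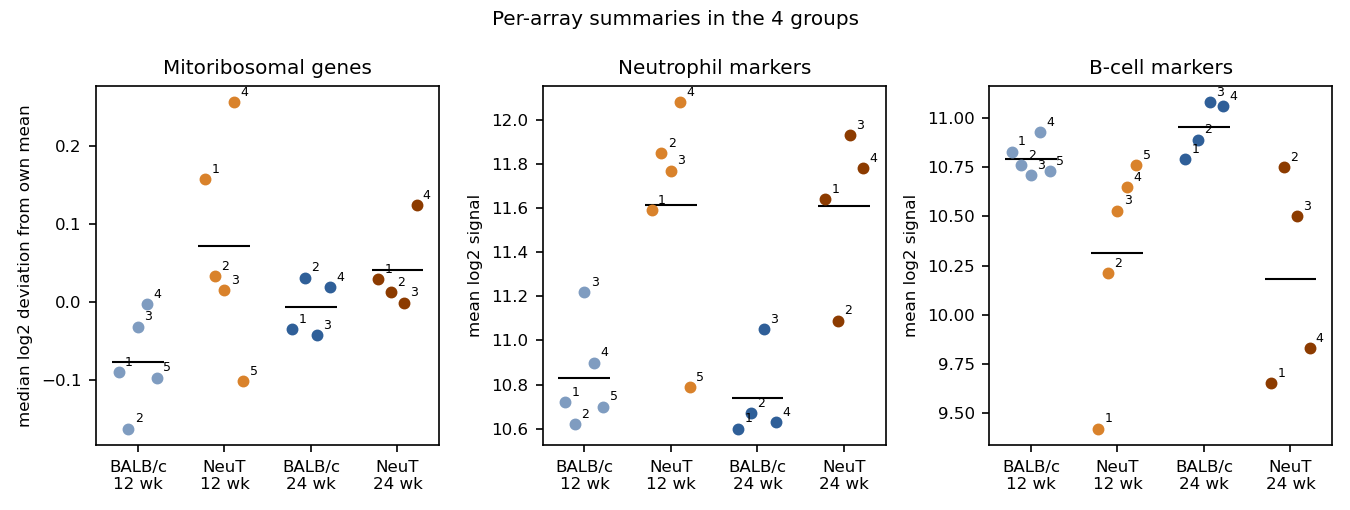
One point per array, with replicate numbers and a line at each group mean, for the median deviation of the 76 genes from their own means (log2), the mean neutrophil marker signal (log2) and the mean B-cell marker signal (log2). NeuT replicate 5 of 12 weeks, at -0.10 and 10.79, lies with the BALB/c mice on the first and second panels.

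The large subunit holds the site where amino acids are joined, and the small subunit reads the messenger RNA. Of 48 Mrpl genes 45 had a higher mean in NeuT at 12 weeks, with a median difference of 0.16, and 1 was called. Of 28 Mrps genes 23 did, with a median of 0.13, and 0 were called. By origin, the 30 bacterial-type large-subunit proteins had a median of 0.19 with 29 positive, and the 19 mitochondria-specific ones, Mrps30 among them, 0.12 with 16 positive. The 14 bacterial-type small-subunit proteins had a median of 0.13 with 11 positive, and the 9 mitochondria-specific ones 0.17 with 9 positive. These subgroups overlap widely in their single values, and the differences between subgroups were not tested.

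**Figure D3:**
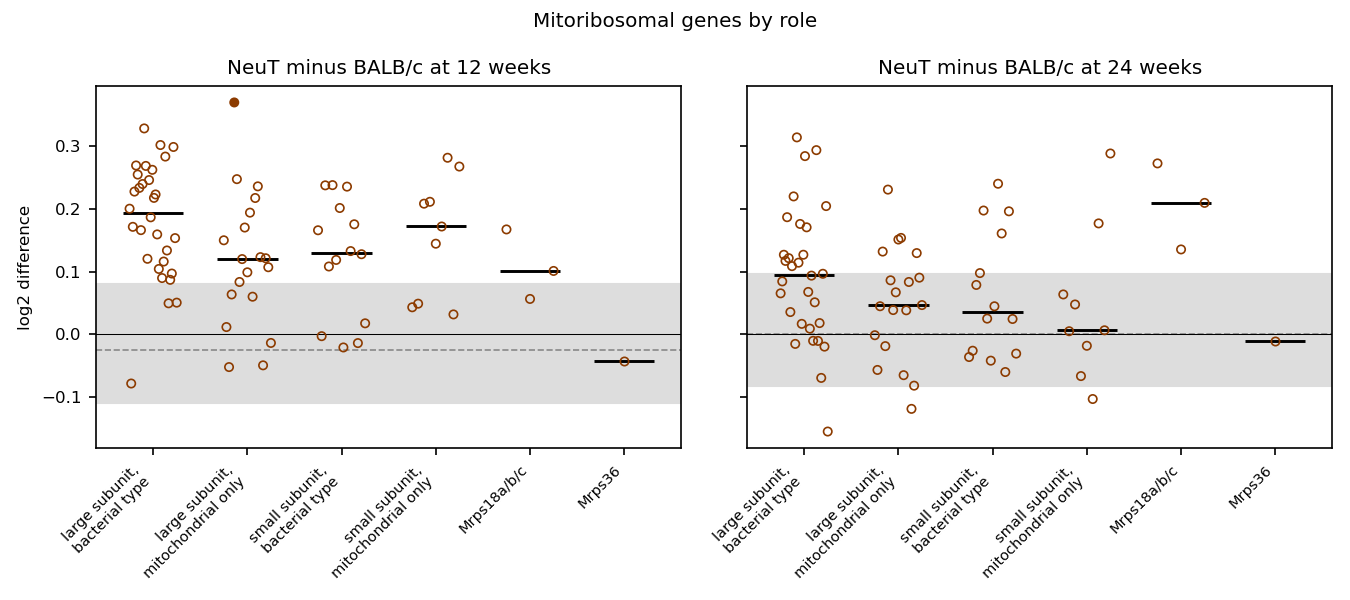
NeuT minus BALB/c difference (log2) of each gene by role at 12 and at 24 weeks, with filled points for adjusted p under 0.05, black bars for the role's median, a dashed line for the median of all genes and a grey band for its quartiles. Mrpl41, at 0.37, is the filled point at 12 weeks, and none is filled at 24 weeks.

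Mrpl41 (Entrez gene 107733), a mitochondria-specific protein of the large subunit, read 9.91, 9.51, 10.02, 9.85 and 9.81 in BALB/c mice of 12 weeks. In NeuT mice of 12 weeks it read 10.26, 10.20, 10.12, 10.50 and 9.87. The first 4 NeuT replicates were above all BALB/c mice of that age, and replicate 5 was inside their range. The means were 9.82 ± 0.19 (SD, n = 5) and 10.19 ± 0.23 (SD, n = 5), so Mrpl41 rose by 0.37 ± 0.10 (SE), a ratio of 1.29 (adjusted p = 0.0409 in limma). Leaving out single arrays ended this call in 8 of 10 fits, all but those without BALB/c replicate 3 and without NeuT replicate 5, with differences of 0.29 to 0.45. It was also lost with further quantile normalisation (adjusted p = 0.0745), with cyclic loess (0.0776), without the 3 arrays least like the rest (0.0726), with only the 12-week groups fitted (0.0634) and with the cell marker covariates (0.845). At 24 weeks Mrpl41 read 10.11, 10.02, 10.27 and 9.96 in BALB/c and 10.14, 10.05, 10.01 and 10.09 in NeuT, overlapping ranges with a difference of -0.019 (adjusted p = 0.963).

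Mrps33, a mitochondria-specific protein of the small subunit, came closest to the threshold among the other members. It read 10.74, 10.69, 10.87, 10.83 and 10.76 in BALB/c mice of 12 weeks and 11.11, 10.96, 10.99, 11.27 and 10.97 in NeuT mice. All NeuT mice were above all BALB/c mice, and the difference was 0.28 ± 0.081 (SE, adjusted p = 0.0529). Mrpl18, of the large subunit, read 10.67, 10.50, 10.76, 10.88 and 10.71 in BALB/c and 11.14, 10.89, 10.86, 11.42 and 10.84 in NeuT. NeuT replicate 4 stood highest and replicates 3 and 5 were inside the BALB/c range, with a difference of 0.33 ± 0.098 (SE, adjusted p = 0.0604). Mrpl47, a bacterial-type large-subunit protein, read 10.07, 9.99, 10.29, 10.19 and 10.01 in BALB/c and 10.63, 10.32, 10.29, 10.61 and 10.19 in NeuT. Replicates 3 and 5 were inside the BALB/c range for Mrpl47 as well, and its difference was 0.30 ± 0.093 (SE, adjusted p = 0.0707).

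Mrpl19, a bacterial-type protein of the large subunit, was the most even gene in BALB/c mice of 12 weeks among those named, at 11.51, 11.52, 11.50, 11.49 and 11.51. NeuT mice of that age read 11.80, 11.75, 11.78, 11.88 and 11.66, all above them, with a difference of 0.27 ± 0.087 (SE, adjusted p = 0.0794). Mrpl33, another bacterial-type protein of the large subunit, read 11.96, 11.99, 12.04, 11.97 and 11.96 in BALB/c and 12.30, 12.21, 12.18, 12.65 and 12.00 in NeuT. Here replicate 4 stood highest and replicate 5 was inside the BALB/c range, with a difference of 0.28 ± 0.090 (SE, adjusted p = 0.0758). In all 11 members had an adjusted p under 0.1.

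Members with known roles in the ribosome were read whatever their values. Mrpl12, which forms the stalk that binds translation factors and also interacts with the mitochondrial RNA polymerase, differed by 0.23 at 12 weeks (adjusted p = 0.228). Mrps12, a decoding-centre protein, differed by 0.24 (adjusted p = 0.0902), and Mrpl11, at the stalk base, by 0.17 (adjusted p = 0.262). Smaller values were found for Mrpl44 (0.12, adjusted p = 0.315), Mrps16 (0.12, adjusted p = 0.332), Mrps22 (0.04, adjusted p = 0.854) and Mrps34 (0.03, adjusted p = 0.843), genes in which human mutations cause deficiencies of the respiratory chain. Mrpl58, a release enzyme that frees stalled ribosomes, differed by 0.11 (adjusted p = 0.419) and Mrps30, which sits in the large subunit despite its name, by -0.01 (adjusted p = 0.936). Mrps36, which is now known as a component of the oxoglutarate dehydrogenase complex, differed by -0.04 (adjusted p = 0.750). None of these passed the threshold.

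At 24 weeks the comparison is with late-stage mice. A higher mean in NeuT was found for 55 of 76 members (72.4%), against 49.9% of all genes, with a median of 0.07 over members and -0.00014 over all genes. No member passed the threshold in limma, against 1.4% of all genes, and 6 had an unadjusted p under 0.05, which is fewer in share than the 13.2% of all genes. Single differences ran from -0.16 to 0.31, and for 74 members the 95% interval lay within a 1.5-fold change. Groups did not overlap for Mrpl10, Mrpl19, Mrpl2, Mrpl33, Mrpl48 and Mrps15, all higher in NeuT, 7.89% of members against 4.95% of all genes. None was lower without overlap, against 1.76%. The size depended on scaling: 42 genes were positive with further quantile normalisation and 43 with cyclic loess, with medians of 0.0052 and 0.0094, still above 0. The median was 0.041 without BALB/c replicate 3, 0.042 without NeuT replicate 4 and 0.029 with array weights.

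Per array, the member median was -0.034, 0.032, -0.042 and 0.019 in BALB/c mice of 24 weeks and 0.030, 0.013, -0.00047 and 0.12 in NeuT mice. The 2 groups overlapped, and NeuT replicate 4 stood highest. The neutrophil marker mean was 10.60, 10.67, 11.05 and 10.63 in BALB/c and 11.64, 11.09, 11.93 and 11.78 in NeuT, without overlap, and 6 of 15 neutrophil genes rose. The B-cell marker mean was 10.79 to 11.08 in BALB/c and 9.65, 10.75, 10.50 and 9.83 in NeuT, and 2 of 11 genes fell. Of 13 stromal genes 3 rose, of 10 monocyte genes 1 rose, and of 11 T and NK-cell genes 1 rose and 3 fell. Of all genes 274 (1.4%) were called at 24 weeks. That count was 1 with only the 24-week groups fitted and 8 to 641 without single arrays, so these marker calls depend on the fit. With the neutrophil and B-cell means as covariates the member median was -0.060, with 23 of 76 positive. In that fit 0.0103% of all genes were called, and the median over all genes was -0.0027. The part of these cells in the member values was not tested.

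Mrpl19 had the largest difference at 24 weeks. It read 11.66, 11.70, 11.19 and 11.73 in BALB/c and 11.94, 11.76, 11.81 and 12.02 in NeuT, so BALB/c replicate 3 stood far below the rest and the groups did not overlap. The difference was 0.31 ± 0.097 (SE, adjusted p = 0.116), and 0.19 without that replicate. Mrpl33 read 11.96, 12.06, 11.83 and 12.05 in BALB/c and 12.37, 12.18, 12.17 and 12.37 in NeuT, again without overlap, with a difference of 0.29 ± 0.10 (SE, adjusted p = 0.171). Mrps35, a mitochondria-specific protein of the small subunit, differed by 0.29 (adjusted p = 0.299), and by 0.14 without BALB/c replicate 3.

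Mrps18a, Mrps18b and Mrps18c are homologues of 1 bacterial protein that occupy different sites on the ribosome, Mrps18a lying in the large subunit. Mrps18a read 10.80, 10.80, 9.83 and 10.96 in BALB/c mice of 24 weeks and 10.92, 10.76, 10.79 and 11.02 in NeuT. BALB/c replicate 3 was low and all others were close together. Its difference was 0.27 ± 0.16 (SE, adjusted p = 0.494), and 0.015 without that array. Mrps18b differed by 0.14 (adjusted p = 0.637), and by -0.020 without it. Mrps18c differed by 0.21 (adjusted p = 0.305), and by 0.16 without it. At 12 weeks the differences were 0.17, 0.06 and 0.10 for Mrps18a, Mrps18b and Mrps18c.

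The change of the NeuT effect between the ages was tested directly. No member passed, against 0.0103% of all genes, and 6 had an unadjusted p under 0.05, against 6.5% of all genes, all with a smaller effect at 24 weeks. The 24-week effect was below the 12-week effect for 55 members (72.4%), against 44.4% of all genes, with a median difference of -0.06 from -0.39 to 0.21. The median was -0.028 without NeuT replicate 4 of 12 weeks, -0.033 without BALB/c replicate 2 of 24 weeks and -0.10 without NeuT replicate 5 of 12 weeks. Mrpl41 had the largest, -0.39 ± 0.15 (SE, adjusted p = 0.724), followed by the large-subunit genes Mrpl18 (-0.34, adjusted p = 0.748) and Mrpl47 (-0.32, adjusted p = 0.750). The small-subunit genes Mrps26 (-0.28, adjusted p = 0.731), Mrps31 (-0.28, adjusted p = 0.724) and Mrps17 (-0.24, adjusted p = 0.740) came next. For 73 members the 95% interval of this difference lay within a 1.5-fold change. The larger share of positive values at 12 weeks is thus not shown to differ from that at 24 weeks for any single gene. Across the 76 members, 50 were higher in NeuT at both ages, 18 at 12 weeks only by sign, 5 at 24 weeks only and 3 at neither.

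Age was compared within each model, though any difference in how the young and the older mice were processed cannot be told apart from it. In BALB/c mice 54 of 76 members (71.1%) had a higher mean at 24 weeks, against 44.1% of all genes, with medians of 0.06 and -0.018. Leaving out single arrays moved the member median to 0.037 without BALB/c replicate 2 of 24 weeks and to 0.092 without replicate 3 of that group. The NeuT comparison at 12 weeks and the change of the NeuT effect use the same BALB/c mice of 12 weeks, so the results are not independent. The per-array medians of those mice were all below 0, from -0.16 to -0.0027. Mrps27 passed the threshold, 1 member against 0.579% of all genes, and 11 had an unadjusted p under 0.05, against 15.3%. Groups did not overlap for 7 members, all higher at 24 weeks, against 3.38% of all genes in that direction, and for 0 lower, against 3.57%. In NeuT mice 33 of 76 were higher at 24 weeks, against 48.9% of all genes, with a median of -0.02. That sign turned without NeuT replicate 1 of 12 weeks (0.0047, 41 genes higher), replicate 4 of 12 weeks (0.019, 47 higher) or replicate 2 of 24 weeks (0.0024, 39 higher), without the 3 arrays least like the rest (0.028, 47 higher) and with array weights (0.014, 40 higher). Without NeuT replicate 5 of 12 weeks the median was -0.066 and without replicate 4 of 24 weeks -0.051. No member passed, against 0.0359% of all genes and with 3 at an unadjusted p under 0.05 against 12.6%. Here Mrpl10 and Mrps27 did not overlap between the ages, both higher at 24 weeks, against 2.96% of all genes, and 0 members were lower without overlap, against 2.12%.

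Mrps27, a mitochondria-specific small-subunit protein with pentatricopeptide repeats (Entrez gene 218506), read 9.10, 8.89, 9.11, 9.12 and 9.13 in BALB/c mice of 12 weeks and 9.53, 9.47, 9.33 and 9.58 at 24 weeks. The 2 ages did not overlap, and replicate 2 of the younger mice was the lowest. The means were 9.07 ± 0.099 (SD, n = 5) and 9.48 ± 0.11 (SD, n = 4), so Mrps27 rose by 0.41 ± 0.075 (SE), a ratio of 1.33 (adjusted p = 0.0202 in limma). The call was lost in 4 of 9 fits that left out single arrays, without BALB/c replicates 2 and 4 of 12 weeks and replicates 1 and 2 of 24 weeks, with differences over the 9 fits of 0.36 to 0.46. In NeuT mice it read 9.26, 9.24, 9.17, 9.22 and 9.18 at 12 weeks and 9.50, 9.32, 9.41 and 9.60 at 24 weeks, again without overlap, a difference of 0.24 ± 0.075 (SE, adjusted p = 0.169). NeuT mice of 12 weeks were thus above their BALB/c controls and below both groups of 24 weeks. The promoter shown above carries 1 ETS and 1 YY1 match.

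**Figure D4:**
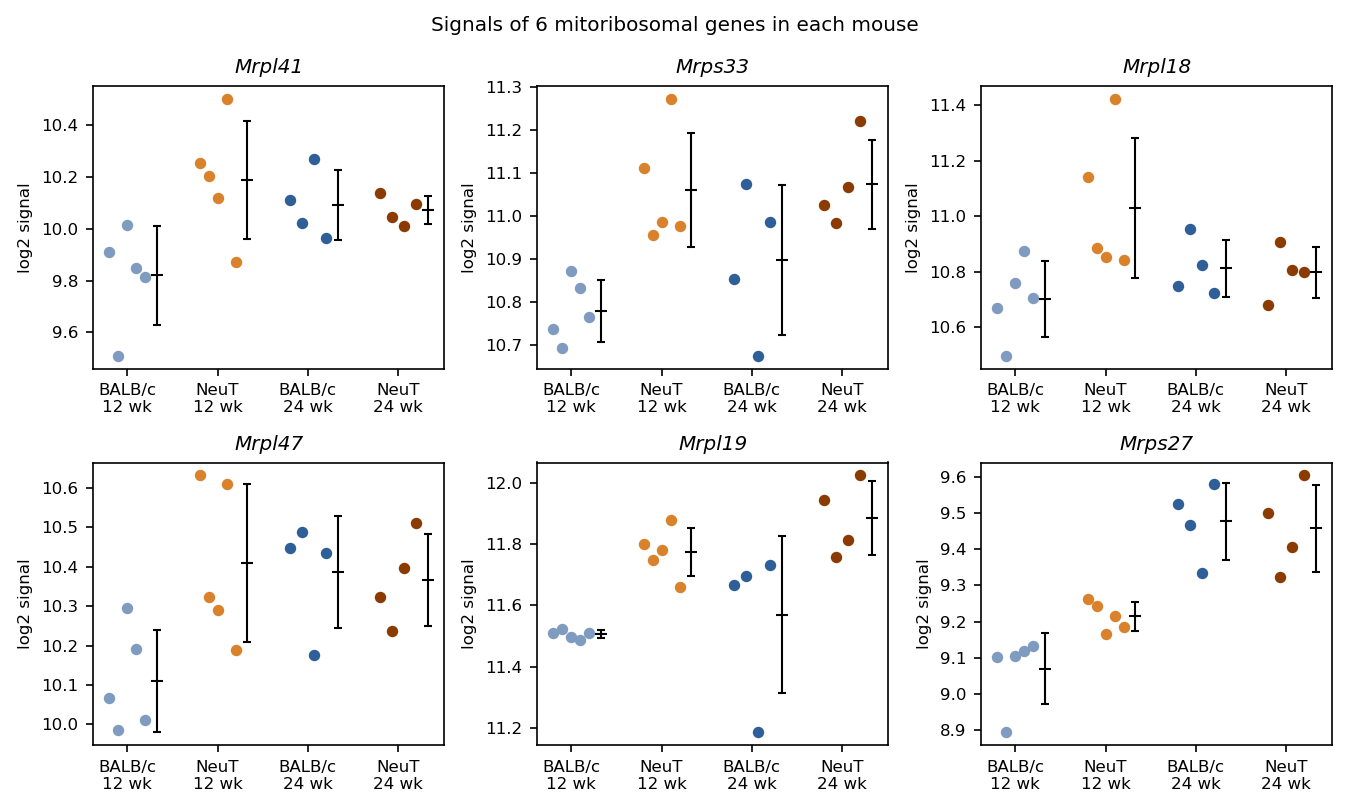
Log2 signal per array (points) with the mean and SD of each group (horizontal and vertical lines) for Mrpl41, Mrps33, Mrpl18, Mrpl47, Mrpl19 and Mrps27. Mrps27 lies at 9.32 or above in every mouse of 24 weeks and at 9.26 or below in every mouse of 12 weeks.

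After Mrps27, the smallest p-values with age in BALB/c were those of 3 large-subunit genes. Mrpl36, a bacterial-type protein, went from 8.74 ± 0.034 (SD, n = 5) to 9.01 ± 0.072 (SD, n = 4), a difference of 0.27 (adjusted p = 0.0776). Mrpl14 differed by 0.31 (adjusted p = 0.122) and Mrpl47 by 0.28 (adjusted p = 0.169). In NeuT mice the corresponding smallest p was that of Mrpl10, the protein of the stalk base that carries Mrpl12, which read 8.18, 8.32, 8.33, 8.19 and 8.25 at 12 weeks and 8.46, 8.48, 8.45 and 8.50 at 24 weeks. Its ranges did not overlap, and the difference was 0.22 (adjusted p = 0.148). Mrpl18 differed by -0.23 (adjusted p = 0.349).

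Once the group means were removed, most pairs of members varied in the same direction from mouse to mouse. Over the 18 arrays the mean correlation of residuals was 0.338 for the 2850 pairs of members, against 0.0368 for pairs of all genes. Within the large subunit it was 0.390, within the small subunit 0.246, and between them 0.320. Of the pairs, 81.3% were above 0. Arrays are shared by all pairs, so these are descriptions. Mrps2, at -0.299, Mrpl9, at -0.0968, and Mrpl36, at -0.0833, were the members least like the rest by their correlation with the other members. The median residual SD was 0.122 for members and 0.138 for all genes.

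The rest of the mitochondrial translation pathway was read from lists of known genes. At 12 weeks no gene passed among the 4 measured ribosomal proteins with other symbols (median 0.14) or the 15 translation factors (median 0.19). The 26 factors that assemble the ribosome had a median of 0.098 with 19 positive. Of these 2 rose, the GTPase genes Noa1 by 0.47 (adjusted p = 0.0267) and Gtpbp10 by 0.40 (adjusted p = 0.0368). The 19 mitochondrial tRNA synthetases had a median of 0.12 with 15 positive. Of these 2 rose, Cars2 for cysteine by 0.37 (adjusted p = 0.00477) and Yars2 for tyrosine by 0.43 (adjusted p = 0.0157). For comparison, 3.15% of all genes were called higher at 12 weeks and 42.6% had a higher mean in NeuT.

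The 18 factors of mitochondrial DNA and RNA had a median of 0.16 at 12 weeks with 15 positive. Of these 3 rose, the transcription elongation factor Tefm by 0.47 (adjusted p = 0.0238), the single-stranded DNA-binding protein Ssbp1 by 0.29 (adjusted p = 0.0238) and the transcription factor Mterf1a by 0.27 (adjusted p = 0.0217). The 25 genes of protein import and folding had a median of 0.10 with 22 positive. Of these 2 rose, the translocase subunit Timm21 by 0.46 (adjusted p = 0.0363) and Hspd1, the mitochondrial chaperonin, by 0.93 (adjusted p = 6.17e-05). Hspd1 was the listed gene whose NeuT effect differed between the ages, by -0.996 (adjusted p = 0.0352). In BALB/c mice of 12 weeks it read 9.78, 9.76, 10.31, 10.30 and 10.33. Without the 3 arrays least like the rest 0 of all genes were called for this difference of effects, so the Hspd1 call was lost. No gene of these lists fell at 12 weeks, and none passed in either direction at 24 weeks, where the medians were 0.03 to 0.10.

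Of 12 measured regulators of mitochondrial biogenesis and stress, Myc, a transcription factor that drives growth, rose by 0.53 at 12 weeks (adjusted p = 0.0124) and Ddit3, a stress transcription factor, fell by 0.29 (adjusted p = 0.0382). With age in BALB/c, Myc rose by 0.71 (adjusted p = 0.0134) and Ddit3 fell by 0.40 (adjusted p = 0.0309). Both comparisons share the BALB/c mice of 12 weeks. Of the pathway lists, Fastkd1 (0.55, adjusted p = 0.0471), Twnk (0.44, adjusted p = 0.0193) and Hspd1 (0.72, adjusted p = 0.0105) also rose with age in BALB/c. Without BALB/c replicate 1 of 24 weeks 0 of all genes were called with age in BALB/c. The age calls of Myc, Ddit3, Fastkd1, Twnk and Hspd1 were thus lost in that fit. The 34 measured proteins of the cytosolic ribosome had medians of 0.04 at 12 weeks, with 30 positive, and 0.13 at 24 weeks, with 33 positive. None passed at either age. At 24 weeks their array means were 12.96, 13.27, 13.12 and 13.24 in BALB/c and 13.27, 13.26, 13.26 and 13.31 in NeuT. BALB/c replicates 1 and 3 thus lay lowest. The mitochondrial set had medians of 0.15 at 12 weeks and 0.07 at 24 weeks, and the difference between the 2 kinds of ribosome was not tested.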

How the data were processed

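The deposited table holds 29129 probe sets on the log2 scale, 1 column per mouse. The submitters' processing notes name RMA and the Transcriptome Analysis Console, without versions here. The genome build is not given in the sources used here. The authors' log2 signals were used as deposited, with no filter, since the table has no detection calls. Of the probe sets, 19572 had 1 gene symbol in the platform annotation. The probe set with the highest mean was kept for the 55 genes with several, leaving 19505 genes.

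One mean per group was fitted in limma 3.58.1 (R 4.3.3), with 14 residual and 8.68 prior degrees of freedom. Tests were two-sided and adjusted by Benjamini-Hochberg over all genes. Scripts were tested on simulated data. Python 3.11.15 and matplotlib 3.10.9 drew the figures. The number of arrays limits the precision.

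The members, the gene and marker lists and the alternatives were chosen with earlier results of these data known. Named were, for each comparison, members past the threshold, filled to 4 by smallest p, the 13 members with known roles, and up to 3 called genes of each other list. Other members were named by lack of overlap or as lowest correlations, after their values were seen. Mrpl47 and Mrpl55 were moved to the bacterial-type role after values were seen. Promoter sequences are RefSeq's.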

Additional observations from a re-analysis of the deposited data

Results flagged for a closer look

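In 112 groups of 4 or 5 arrays, over the named members and the per-array median, 8 single arrays lay far from the rest of their group by Dixon's ratio. Chance alone places about 1 in 20 groups there.

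BALB/c replicate 2 of 12 weeks was the lowest of its group for Mrps26 at 10.35, where the others read 10.46 to 10.49, for Mrps27 at 8.894, where they read 9.102 to 9.131, and for Mrpl11 at 10.76, where they read 10.95 to 10.98. BALB/c replicate 3 of 24 weeks was the lowest for Mrpl19 at 11.19 against 11.66 to 11.73, for Mrps30 at 9.312 against 9.702 to 9.705, for Mrps18a at 9.826 against 10.8 to 10.96, and for Mrps18b at 9.303 against 9.913 to 9.932. This array is also among the 3 arrays least like the rest over all genes. NeuT replicate 2 of 24 weeks was the lowest for Mrpl12 at 9.368 against 9.673 to 9.716.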

How the results depend on the processing

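The count of members called at 12 weeks was 1 as reported. It was 0 with further quantile normalisation (3.53% of all genes called), with cyclic loess (3.65%) and with the neutrophil and B-cell covariates (0.0205%). It was 3 with a filter on dim genes (6.56%), with trend and robust moderation (4.19%) and with only the groups compared (4.75%). With array weights it was 9 (10.7%). Leaving out single arrays gave 0 to 14, with 14 without NeuT replicate 5 (6.99% of all genes) and 0 in 8 of the 10 fits. When the 3 arrays least like the rest were dropped, an alternative chosen after seeing the data, the count was 1, a different gene (4.48%). The covariates took the member median to 0.035 at 12 weeks and -0.060 at 24 weeks. Without single arrays these medians ran from 0.12 to 0.19 at 12 weeks and 0.041 to 0.085 at 24 weeks. With age in BALB/c the count, also 1, was 8 with array weights, against 12.2% of all genes. It was 2 with the covariates (2.15%), 4 without the 3 arrays (6.55%) and 0 to 1 without single arrays (0% to 3.02%). The counts at 24 weeks, for the difference of the effects and with age in NeuT were 0 under all alternatives run. The shares of all genes called there were at most 3.29%, 0.0513% and 0.907%. Of 1733 recomputed values of named members, 1698 kept their side of the threshold, 17 lost the call, 18 gained it and 0 were counted as reversed. Values short of the threshold could still change sign, as that of Mrps18b did at 24 weeks without BALB/c replicate 3. The cause of these changes was not tested. Small differences in single genes are at the limit of 4 or 5 arrays per group. The median SE of a member's NeuT minus BALB/c difference was 0.0805 at 12 weeks and 0.09 at 24 weeks. No paired analysis was possible because the labels give the groups no shared replicate numbers.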
